A study of Mus musculus with 18 samples.

Results

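The unfolded protein and ER stress genes are 32 named genes of protein folding and quality control in the endoplasmic reticulum (ER) and of the signalling that adjusts them. They were chosen by name, and a gene was taken as measured where a probe set of the array carried that symbol and no other, with the probe set of the highest mean over all arrays where there were several. Of the 32 genes, 30 were measured, among 19505 genes in all, and Pdia4 and Manf were not analysed here. The 30 fall into 13 ER chaperones and folding enzymes, 6 genes of ER-associated degradation, 5 stress sensors and transcription factors and 6 stress-induced effectors.

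The unfolded protein response matches the folding capacity of the ER to its load of secreted and membrane proteins. Its sensors are IRE1 (gene Ern1), which splices Xbp1 mRNA, PERK (Eif2ak3), which slows translation and thereby favours synthesis of ATF4, and ATF6, which is cut in the Golgi to release a transcription factor. XBP1 and ATF6 are known mainly for raising chaperones and degradation factors, and ATF4 for raising genes of amino acid supply and stress effectors such as Ddit3. In blood formation, stem cells are known for low rates of protein synthesis, human stem cells for a PERK response stronger than that of progenitors, and fetal liver stem cells of the mouse for relying on bile acids that relieve ER stress.

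The study compared hematopoietic cells of C57Bl/6J mice, sorted from adult bone marrow (BM, animals 3 to 12 months old) or from fetal liver (FL, E13.5 embryos). In each source, the long-term stem cells (LT-HSC), which renew themselves, the short-term stem cells (ST-HSC) and the multipotent progenitors (MPP) were sorted as lineage-negative, Sca-1-positive, Kit-positive cells and told apart by Cd150 and Cd48. Each of these 6 groups had 3 samples, lettered a, b and c, each run on 1 Affymetrix Clariom S array, which gave 18 arrays of total RNA. No treatment is named in the titles or cell type labels, but the free-text descriptions speak of transplanted mice, with sgEzh2 for 4 FL arrays (replicate a of each population, and MPP b) and with sgLuc for others. The titles, source names and stages were used here, and calls that ended without those 4 arrays are named for the comparisons averaged over populations or sources and counted for the others. Whether the samples of a group are separate animals is not stated, and p-values therefore cover the spread between these samples, which may be technical.

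The median log2 signal of an array was 7.68 to 7.78, and within a group arrays correlated at 0.960 to 0.995 over genes. Slamf1, which encodes Cd150, was at 9.66 ± 0.40, 8.04 ± 0.22 and 7.25 ± 0.14 in BM LT-HSC, ST-HSC and MPP and at 9.31 ± 0.18, 7.49 ± 0.10 and 6.71 ± 0.24 in the same order in FL (mean log2 signal ± SD, n = 3). Cd48 was at 12.26 ± 0.08 in BM MPP and at 9.83 ± 0.38 to 10.32 ± 0.95 in the other BM groups, so both sort markers followed the labels. Values of FL LT-HSC b, BM ST-HSC b, BM ST-HSC c and BM LT-HSC c spanned a narrower interquartile range (2.61 to 2.71) than those of the other arrays, from 2.98 upwards. These are called the 4 narrow arrays. In BM LT-HSC c the mean of 10 late neutrophil markers, 12.48, was the highest of all arrays. The deposited log2 signals of different probe sets are not on a common scale, so levels are compared between samples and never between genes. In these bulk samples fewer cells of a type and less RNA per cell cannot be told apart, and the arrays do not separate the spliced from the unspliced form of Xbp1 mRNA.

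Promoters of many of these genes carry elements through which the response is known to act. The windows searched run from 250 bases before to 50 after each annotated start (RefSeq, GRCm38.p6), and 27 of the 30 members have 1. The ER stress response element, searched as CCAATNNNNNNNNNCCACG on both strands, was found in 9 of these 27 members, 7 of them among the 12 chaperones with a window, and in 0.137% of 27025 genes. Several of these genes are the ones from which the element was described, so its presence in them is no independent finding. The shorter form ATTGGNCCACG (ERSE-II) was found in Dnajb11 and Herpud1 and in 0.0444% of genes. A match to TGATGNAA, the core of the amino acid response element (CARE) to which ATF4 is known to bind, lay in Asns, Chac1, Herpud1 and Trib3, and in 4.51% of genes. TGACGTGG (UPRE), a sequence known from XBP1 binding, was in none of the 27 windows and in 0.714% of genes. No match overlapped one of another motif in these windows. The stretches of 9 of the members described below are shown, 5′ to 3′ along the gene, with the matching letters in capitals. Whether these elements bear on the expression differences was not tested. In Calr and Creld2 the element is on the opposite strand, and Herpud1 carries a match to the amino acid response element, on the opposite strand, before its ERSE-II.
Hspa5: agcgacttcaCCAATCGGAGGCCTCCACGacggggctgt
Calr: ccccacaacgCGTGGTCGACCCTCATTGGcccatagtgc
Pdia6: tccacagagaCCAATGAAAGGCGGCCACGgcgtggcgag
Creld2: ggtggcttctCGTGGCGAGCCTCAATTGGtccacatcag
Dnajc3: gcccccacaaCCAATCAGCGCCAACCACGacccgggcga
Syvn1: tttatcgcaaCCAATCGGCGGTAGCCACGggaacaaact
Canx: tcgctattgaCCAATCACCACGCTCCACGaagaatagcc
Herpud1: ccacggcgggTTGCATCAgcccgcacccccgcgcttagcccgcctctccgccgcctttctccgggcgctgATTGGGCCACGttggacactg
Asns: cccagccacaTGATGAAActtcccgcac
These stretches lie at chr2:34772015-34772053 (+) for Hspa5, chr8:84847065-84847103 (-) for Calr, chr12:17266481-17266519 (+) for Pdia6, chr15:88819510-88819548 (+) for Creld2, chr14:118937817-118937855 (+) for Dnajc3, chr19:6046522-6046560 (+) for Syvn1, chr11:50325790-50325828 (-) for Canx, chr8:94386307-94386397 (+) for Herpud1 and chr6:7693215-7693242 (-) for Asns. A match in a window is a description of its letters and not evidence of binding.

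**Figure D1:**
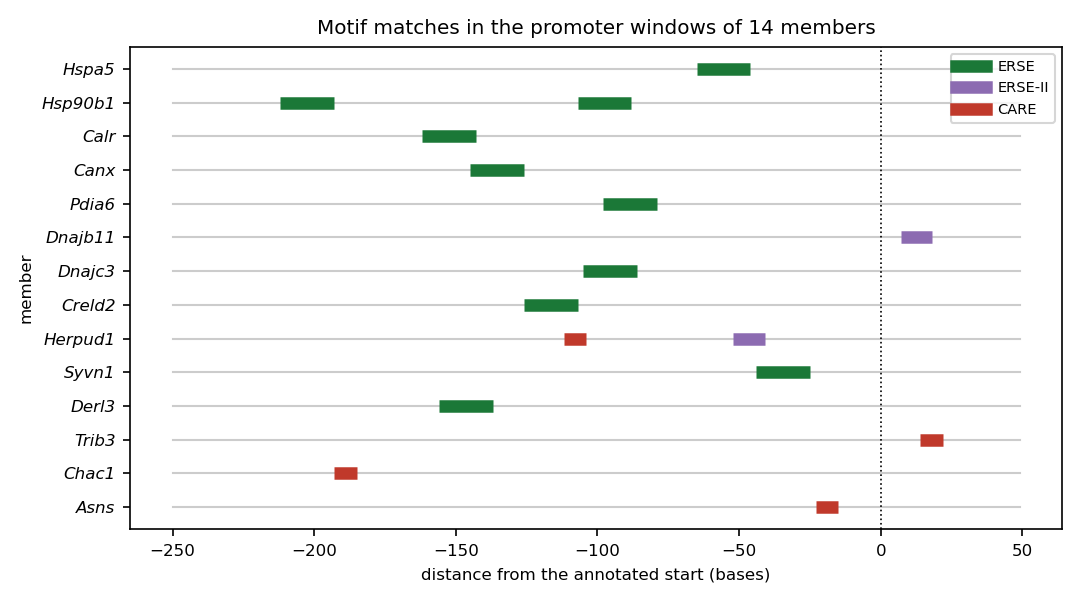
Motif matches (coloured bars) along the promoter windows of the 14 members with a match, as distance in bases from the annotated start (dotted line at 0). Green, ERSE; purple, ERSE-II; red, CARE. ERSE matches begin between positions -212 and -44, and Hsp90b1 has 2.

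Members passed in the comparison of sources and in that of populations. Of 11 members that rose in BM, 3 were sensors or transcription factors, 3 effectors, 2 degradation genes and 3 chaperones, with Ppp1r15a and Dnajb9 in front. Of 7 members that rose in MPP, 6 were chaperones. Differences are in log2 units with the standard error of a limma fit to the 6 group means of all 18 arrays, and a gene passed at a Benjamini-Hochberg adjusted p under 0.05 over the 19505 genes. For BM minus FL over the 3 populations weighted equally, 11 of the 30 members were higher in BM (9.26% of all genes were) and 1 was lower (15.9% of all genes). The median difference of the members was 0.16, beside -0.01 for all genes. For MPP minus LT-HSC over both sources weighted equally, a comparison added after the values had been seen, 7 members were higher in MPP (5.14% of all genes) and 2 lower (3.73%), with a median of 0.12 beside 0.01. Of these, Calr was higher in both comparisons and Ddit3 was higher in BM and lower in MPP, while no other member passed both. The share of all genes that passed both was not counted, so this overlap only describes the members. A member that did not pass may still differ. Without the 4 arrays described as sgEzh2, Calr, Dnajc3, Syvn1 and Chac1 lost their call for BM minus FL, and Pdia6, Creld2, Edem1, Ddit3 and Asns lost theirs for MPP minus LT-HSC. In that order the BM minus FL differences were then 0.24, 0.22, 0.25 and -0.37, beside 0.30, 0.35, 0.24 and -0.41 with all arrays. Those of MPP minus LT-HSC were 0.50, 0.62, 0.42, -0.49 and -0.58, beside 0.48, 0.56, 0.36, -0.38 and -0.73. A lone FL MPP array remained in that fit, and fewer arrays estimated the spread. The comparisons use the same arrays and are not independent of each other.

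**Figure D2:**
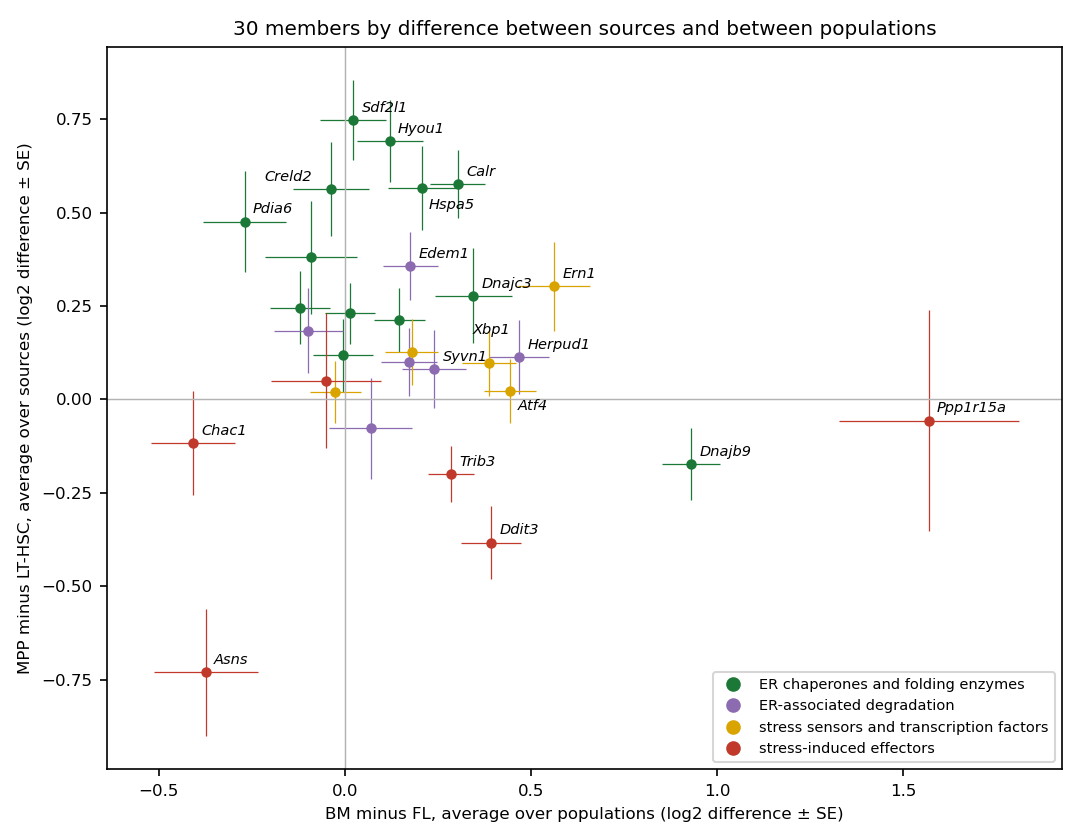
Each of the 30 members by its log2 difference BM minus FL (x axis, average over 3 populations) and MPP minus LT-HSC (y axis, average over 2 sources), with standard errors as bars and colours for the 4 roles. Named genes passed in at least 1 of the comparisons. Ppp1r15a and Dnajb9 lie far to the right near 0 on the y axis, and Sdf2l1, Hyou1, Creld2, Hspa5 and Calr lie high.

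Within single populations fewer members passed. In LT-HSC, 3 members were higher in BM and 0 lower (4.58% and 3.08% of all genes), and in ST-HSC 7 were higher and 0 lower (6.52% and 12.1%). In MPP, 7 were higher in BM and 0 lower, with 3.55% and 1.92% of all genes. Between MPP and LT-HSC, 3 members were higher in MPP and 1 lower in BM (2.35% and 2.23% of all genes), and 4 were higher and 1 lower in FL (1.84% and 1.57%). Between MPP and ST-HSC, 7 were higher in MPP and 2 lower in BM (4.79% and 1.31%), and 3 were higher and 1 lower in FL (0.677% and 1.58%). Between ST-HSC and LT-HSC only Dnajb9 passed in BM, where it was higher in ST-HSC (0.502% of all genes were higher and 1.21% lower), and no member passed in FL, with 2 at an unadjusted p under 0.05 (0.467% and 0.0923%). Most calls within 1 population or source were not steady: of 40 such calls, 8 held in all fits with 1 array left out, and those of Dnajb9 (BM minus FL in ST-HSC and in MPP) and Sdf2l1 (MPP minus LT-HSC and MPP minus ST-HSC in BM) also held under all other alternatives. Without the 4 arrays described as sgEzh2, 0, 2 and 1 members passed for BM minus FL in LT-HSC, ST-HSC and MPP, and 0 passed between MPP and either stem cell group in FL. Whether the step between populations differed between sources was tested as an interaction, and no member passed. For MPP minus LT-HSC the background was 0.215% and 0.328% of all genes and 1 member had an unadjusted p under 0.05, and for ST-HSC minus LT-HSC it was 0.0513% and 0.328% with 6 such members. The smallest adjusted p of these tests was 0.0641, for Edem1, whose interaction was -0.80 ± 0.18, the ST-HSC minus LT-HSC difference of BM minus that of FL.

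**Figure D3:**
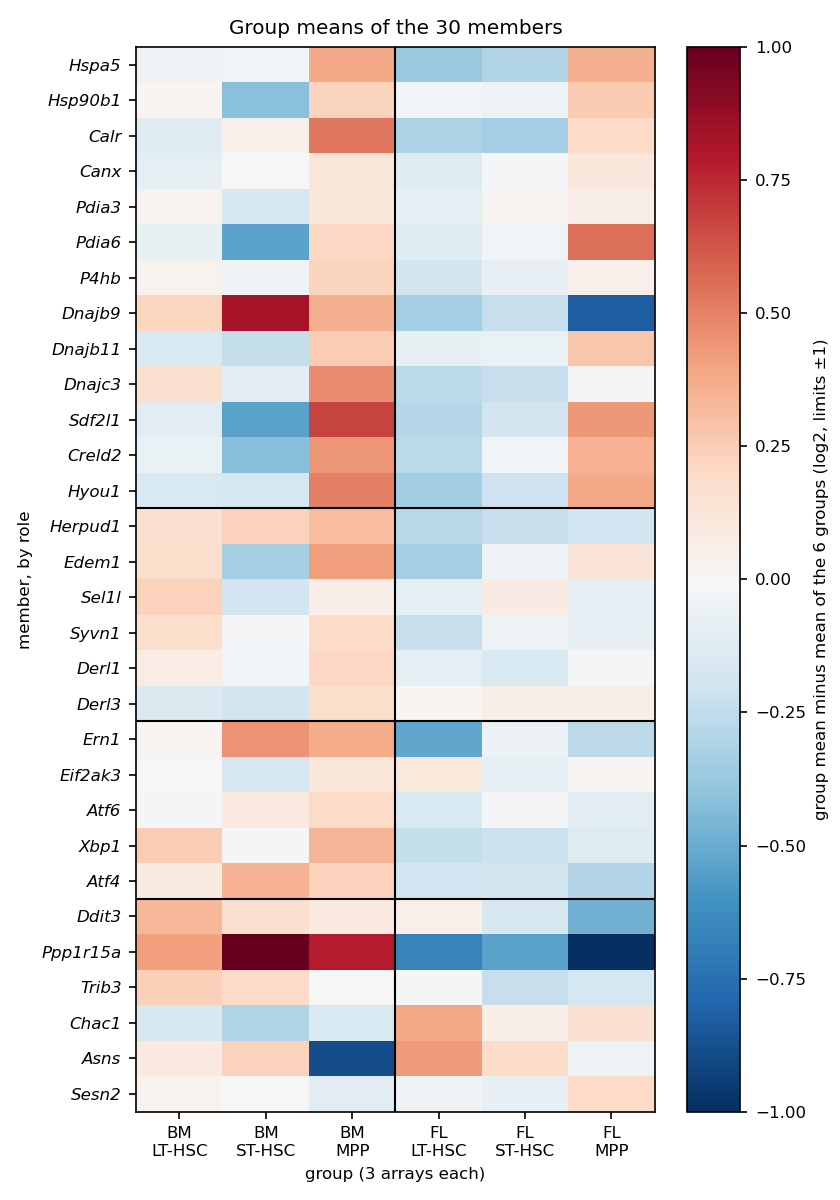
Group means of the 30 members on the log2 scale, each minus the mean of its 6 group means (colour, limits of ±1; Ppp1r15a passes beyond them), by role from chaperones at the top to effectors at the bottom. Columns are LT-HSC, ST-HSC and MPP of BM and then of FL, 3 arrays each. The BM MPP column is the highest of its line for 17 of the 30 members. The share of all genes highest in BM MPP was not counted, so this number only describes the members.

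Among the 13 ER chaperones and folding enzymes, 6 were higher in MPP than in LT-HSC over both sources and none was lower (5.14% and 3.73% of all genes). These were the Hsp70 chaperone of the ER Hspa5 (BiP), its nucleotide exchange factor Hyou1, Sdf2l1, which works with ER cochaperones of the DnaJ family, the lectin chaperone Calr, the stress-inducible Creld2 and the disulfide isomerase Pdia6. The median difference of the 13 genes was 0.38, beside 0.01 for all genes. The group mean was highest in BM MPP for 9 of the 13 and in FL MPP for 3, Hsp90b1, Pdia6 and Dnajb11, the exception being Dnajb9. How often these groups were highest over all genes was not counted.

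Hspa5 was at 10.83, 10.95 and 10.57 in BM LT-HSC a, b and c, at 10.93, 10.77 and 10.69 in BM ST-HSC and at 11.17, 11.24 and 11.18 in BM MPP. In FL it was at 10.55, 10.32 and 10.49 in LT-HSC, at 10.32, 10.94 and 10.31 in ST-HSC and at 11.25, 10.98 and 11.28 in MPP. All 6 MPP arrays were above all 12 others, and BM LT-HSC b and FL ST-HSC b came nearest to them. In FL, MPP exceeded LT-HSC by 0.72 ± 0.16 (adjusted p = 0.0136 by limma) and ST-HSC by 0.65 ± 0.16 (adjusted p = 0.0372). With 1 array left out these calls held in 15 and 10 of the 18 fits, and both were lost without FL MPP a or c. Over both sources MPP exceeded LT-HSC by 0.57 ± 0.11 or 1.48-fold (adjusted p = 0.00318). The stretch shown above for Hspa5 holds its ERSE.

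Sdf2l1 was at 9.82, 9.85 and 9.86 in BM LT-HSC, at 9.34, 9.54 and 9.37 in BM ST-HSC and at 10.70, 10.63 and 10.53 in BM MPP. The corresponding FL arrays read 9.77, 9.44 and 9.78 in LT-HSC, 9.61, 10.18 and 9.51 in ST-HSC and 10.42, 10.27 and 10.45 in MPP. In BM no MPP array overlapped either stem cell group, and ST-HSC lay below LT-HSC. The largest difference of a member between populations was this gene's MPP minus ST-HSC difference in BM, 1.21 ± 0.15 or 2.31-fold (limma adjusted p = 0.000253). Over both sources MPP exceeded LT-HSC by 0.75 ± 0.11 (adjusted p = 0.000152).

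Calr was at 10.54, 10.71 and 10.34 in BM LT-HSC, at 10.80, 10.60 and 10.71 in BM ST-HSC and at 11.21, 11.16 and 11.18 in BM MPP. In FL it was at 10.38, 10.17 and 10.50, at 10.17, 10.41 and 10.36 and at 10.85, 10.71 and 10.98 in LT-HSC, ST-HSC and MPP. It was the member that rose in both comparisons: the MPP arrays of either source lay above its LT-HSC and ST-HSC arrays, and the 3 BM MPP arrays were above all FL arrays. MPP exceeded LT-HSC by 0.58 ± 0.09 over both sources (limma adjusted p = 0.000397), and BM exceeded FL by 0.30 ± 0.07 over the populations (adjusted p = 0.00537). The BM minus FL call was lost without the 4 arrays described as sgEzh2.

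Hyou1 was at 9.52, 9.90 and 9.62 in BM LT-HSC, at 9.80, 9.49 and 9.66 in BM ST-HSC and at 10.30, 10.38 and 10.32 in BM MPP. In FL the values were 9.59, 9.10 and 9.74 in LT-HSC, 9.47, 9.71 and 9.68 in ST-HSC and 10.31, 10.09 and 10.22 in MPP. No stem cell array of either source reached an MPP array. The difference of MPP minus LT-HSC was 0.66 ± 0.15 in BM (limma adjusted p = 0.0190) and 0.73 ± 0.15 in FL (adjusted p = 0.0101). Without the 4 arrays described as sgEzh2, all of them FL, these calls were lost within each source but not over both. The difference was then still 0.66 in BM, and it was 0.80 in FL. Creld2 was 0.56 ± 0.13 higher in MPP than in LT-HSC over both sources (adjusted p = 0.00740), with 10.36, 10.39 and 10.20 in BM MPP and 10.02, 10.06 and 9.34 in BM LT-HSC, a call lost without the 4 arrays described as sgEzh2.

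Pdia6 had its highest group mean in FL MPP, 10.63 ± 0.13, beside 10.28 ± 0.23 in BM MPP (SD, n = 3 each), and its lowest in BM ST-HSC, 9.54 ± 0.20. Within BM it was 0.74 ± 0.19 higher in MPP than in ST-HSC (limma adjusted p = 0.0288). That call held in 14 of the 18 fits with 1 array left out. A further quantile normalization ended it, as did leaving out the 4 narrow arrays. Without the 4 arrays described as sgEzh2 it was lost too, with the difference unchanged at 0.74. Over both sources the Pdia6 difference of MPP minus LT-HSC, 0.48 ± 0.14, passed at a limma adjusted p of 0.0346. Leaving out any 1 of 8 arrays ended the call, as did a further quantile normalization and leaving out the 4 arrays described as sgEzh2. The BM minus FL difference was -0.27 ± 0.11 and did not pass (adjusted p = 0.0876). Hsp90b1, the ER member of the Hsp90 family, passed in 1 comparison, with 12.38 ± 0.04 in BM MPP and 11.74 ± 0.17 in BM ST-HSC (difference 0.64 ± 0.14, adjusted p = 0.0110), and that call was lost without the 4 narrow arrays, of which 2 are BM ST-HSC.

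**Figure D4:**
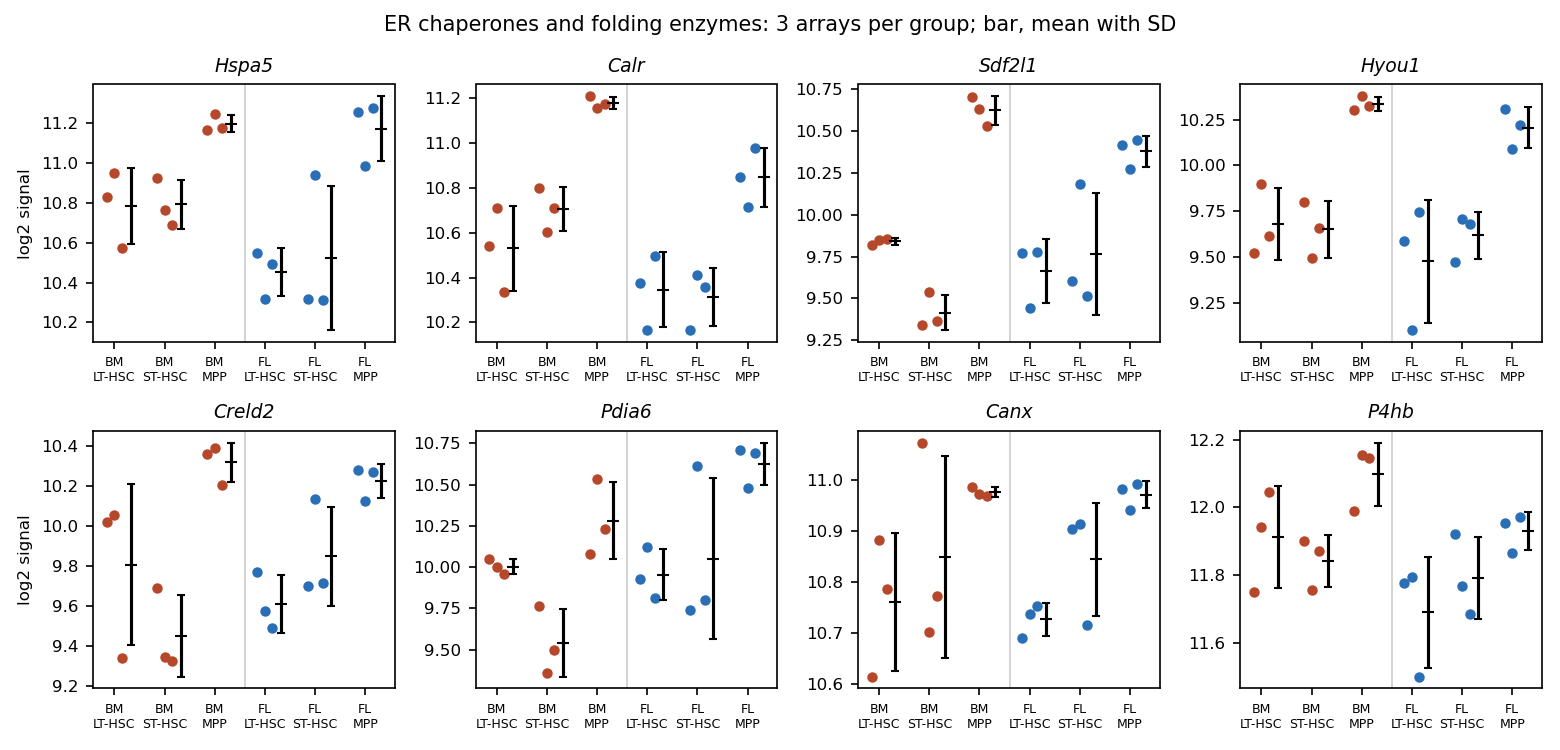
Log2 signal of 8 chaperones and folding enzymes in each array (points; BM left, FL right, LT-HSC, ST-HSC and MPP in order), with the group mean and SD (black, n = 3). Hspa5, Calr, Sdf2l1 and Hyou1 are highest in the MPP of both sources, and Canx and P4hb spread little. The vertical axes differ between panels and do not start at 0.

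Dnajb9 stood apart from the other chaperones. It encodes ERdj4, a DnaJ-type partner of BiP that is a known target of IRE1 and XBP1 and is also known to hold IRE1 inactive. It was at 10.74, 10.66 and 10.54 in BM LT-HSC, at 11.08, 11.34 and 11.36 in BM ST-HSC and at 10.83, 10.97 and 10.56 in BM MPP. In FL the arrays read 9.94, 10.28 and 10.05 in LT-HSC, 10.21, 10.15 and 10.25 in ST-HSC and 9.75, 9.44 and 9.63 in MPP. The lowest BM array, 10.54, was above the highest FL array, 10.28.

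The BM minus FL difference of Dnajb9 was 0.93 ± 0.08 over the populations, or 1.91-fold (limma adjusted p = 9.68e-08). It was 0.56 ± 0.14 in LT-HSC (adjusted p = 0.0154), 1.05 ± 0.14 in ST-HSC (adjusted p = 5.31e-05) and 1.18 ± 0.14 in MPP (adjusted p = 1.75e-05). Dnajb9 was the only member to pass in all 3, but the call in LT-HSC held in 15 of the 18 fits with 1 array left out. That call was also lost when only the groups compared were fitted, and without the 4 arrays described as sgEzh2 (difference then 0.48). Between MPP and ST-HSC Dnajb9 fell, by 0.47 ± 0.14 in BM (adjusted p = 0.0478) and by 0.60 ± 0.14 in FL (adjusted p = 0.0232). Against LT-HSC, MPP differed by 0.14 ± 0.14 in BM and by -0.49 ± 0.14 in FL, and neither passed (adjusted p = 0.681 and 0.0604). The first of the calls against ST-HSC was kept in 4 of the 18 fits with 1 array left out, and the second in 14. The interactions of source with population, 0.62 ± 0.19 for MPP minus LT-HSC and 0.50 ± 0.19 for ST-HSC minus LT-HSC, did not pass (adjusted p = 0.242 and 0.321).

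Dnajc3, a cochaperone also known as an inhibitor of the kinases that slow translation, was at 8.57 at the lowest, 9.10 at the median and 9.44 at the highest in the 9 BM arrays and at 8.44, 8.59 and 9.06 in the 9 FL arrays. These ranges overlapped, and the difference of 0.35 ± 0.10 passed (limma adjusted p = 0.0200) but not without the 4 arrays described as sgEzh2. Canx, Pdia3, P4hb and Dnajb11 passed in none of the comparisons. Canx, the membrane-bound relative of Calr, ranged from 10.61 to 11.07 over the BM arrays and from 10.69 to 10.99 over the FL arrays. Dnajb11, a DnaJ-type partner of BiP, spread more widely, from 8.39 to 9.36 in BM and from 8.46 to 9.26 in FL, and its MPP minus LT-HSC difference over both sources was 0.38 ± 0.15 (adjusted p = 0.133). Its range over all arrays, 0.970, was close to that of Hspa5, 0.964.

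Among the 6 genes of ER-associated degradation, which returns misfolded proteins to the cytosol for destruction, Herpud1 and Syvn1 were higher in BM over the populations and Edem1 was higher in MPP than in LT-HSC over the sources. Herpud1, a membrane protein that helps to assemble the retrotranslocation complex, was at 10.26 at the lowest, 10.58 at the median and 10.80 at the highest in BM arrays and at 9.86, 10.13 and 10.23 in FL arrays. Every BM array was above every FL array, and the difference was 0.47 ± 0.08 (limma adjusted p = 0.000317). Within populations it passed in ST-HSC (0.47 ± 0.14, adjusted p = 0.0288) and in MPP (0.50 ± 0.14, adjusted p = 0.0438). With 1 array left out, these calls held in 15 and 10 of the 18 fits. The group means within a source differed little, from 10.50 to 10.65 in BM and from 10.07 to 10.15 in FL. The stretch of Herpud1 above is the one that holds both an ERSE-II and a match to the amino acid response element.

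Edem1, a lectin of the ER that speeds the removal of misfolded glycoproteins, was at 9.52, 9.49 and 9.83 in BM LT-HSC, at 9.28, 8.98 and 9.06 in BM ST-HSC and at 9.98, 9.76 and 9.82 in BM MPP. In FL it was at 9.15, 8.99 and 9.15 in LT-HSC, at 9.40, 9.37 and 9.39 in ST-HSC and at 9.65, 9.39 and 9.67 in MPP. Its order of groups thus differed between sources, with ST-HSC lowest in BM and LT-HSC lowest in FL. MPP exceeded ST-HSC in BM by 0.75 ± 0.13 (limma adjusted p = 0.00252), and BM exceeded FL in LT-HSC by 0.52 ± 0.13 (adjusted p = 0.0160). Over both sources MPP exceeded LT-HSC by 0.36 ± 0.09 (adjusted p = 0.0180), a call lost without FL MPP a, FL MPP c or BM MPP a, with quantile normalization and without the 4 arrays described as sgEzh2. The calls within BM and within LT-HSC were lost without the 4 narrow arrays, which include BM ST-HSC b and c, BM LT-HSC c and FL LT-HSC b.

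Syvn1, the ubiquitin ligase HRD1, had a BM minus FL difference of 0.24 ± 0.09 (limma adjusted p = 0.0490), a call that held in 4 of the 18 fits with 1 array left out and was lost without the 4 arrays described as sgEzh2. Its partner Sel1l was at 6.84 to 7.68 in BM and 6.96 to 7.67 in FL and passed in no comparison, and neither did the derlins Derl1 and Derl3, which form part of the exit channel.

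Of the 5 sensors and transcription factors, Ern1, Xbp1 and Atf4 were higher in BM, and Eif2ak3 and Atf6 did not pass in any comparison. No member of this role passed between populations in either source. Atf4 was at 11.86, 11.65 and 11.53 in BM LT-HSC, at 11.83, 12.02 and 11.97 in BM ST-HSC and at 11.79, 11.90 and 11.78 in BM MPP. In FL it was at 11.41, 11.30 and 11.49 in LT-HSC, at 11.61, 11.32 and 11.31 in ST-HSC and at 11.22, 11.34 and 11.35 in MPP. Only FL ST-HSC a reached the lowest BM array. The difference was 0.44 ± 0.07 (limma adjusted p = 0.000149), and it passed in ST-HSC (0.53 ± 0.12, adjusted p = 0.00727) and in MPP (0.52 ± 0.12, adjusted p = 0.0144). With 1 array left out, the calls in ST-HSC and MPP held in 18 and 16 of the 18 fits. The first was lost without the 4 narrow arrays and without FL ST-HSC b and c. The second was lost without the 4 arrays described as sgEzh2 (difference then 0.47).

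Ern1 was at 10.13, 10.22 and 9.70 in BM LT-HSC, at 10.28, 10.52 and 10.51 in BM ST-HSC and at 10.20, 10.37 and 10.52 in BM MPP. In FL it read 9.70, 9.06 and 9.66 in LT-HSC, 9.98, 9.82 and 9.99 in ST-HSC and 9.75, 9.76 and 9.68 in MPP. LT-HSC had the lowest group mean in each source, and BM LT-HSC c was the BM array within the FL range. BM exceeded FL by 0.56 ± 0.10 (limma adjusted p = 0.000307), and by 0.51 ± 0.17 in ST-HSC and 0.63 ± 0.17 in MPP (adjusted p = 0.0426 and 0.0314). The calls in ST-HSC and MPP held in 9 and 13 of the 18 fits with 1 array left out.

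Xbp1 was at 11.40, 11.28 and 11.59 in BM LT-HSC, at 11.34, 11.07 and 11.05 in BM ST-HSC and at 11.54, 11.47 and 11.50 in BM MPP, against 10.85 at the lowest, 10.95 at the median and 11.22 at the highest in FL arrays. The LT-HSC and MPP arrays of BM were all above the FL range, while BM ST-HSC b and c fell within it. The difference was 0.39 ± 0.07 over the populations (limma adjusted p = 0.000593), 0.49 ± 0.12 in LT-HSC (adjusted p = 0.0180) and 0.46 ± 0.12 in MPP (adjusted p = 0.0335). The calls in LT-HSC and MPP held in 16 and 13 of the 18 fits with 1 array left out. Jchain, a plasma cell gene chosen after its values were seen, had the same order of BM groups as Xbp1, with 9.37 ± 1.35 in LT-HSC, 7.29 ± 0.38 in ST-HSC and 10.88 ± 0.34 in MPP, and was at 5.56 to 5.61 in the FL groups. Mzb1, another plasma cell gene, had the same order of BM groups but was lower in BM than in FL (-0.52 ± 0.12). Sdc1, also a plasma cell gene, was lower in BM too (-0.31 ± 0.11). Its order of BM groups differed, with 7.91, 8.96 and 8.94 in LT-HSC, ST-HSC and MPP. The part of plasma cell RNA in the Xbp1 differences was not tested. The PERK gene Eif2ak3 was at 8.54 ± 0.17 in BM and 8.57 ± 0.11 in FL, and Atf6 at 11.08 ± 0.15 in BM and 10.90 ± 0.12 in FL (SD, n = 9 each).

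The 6 stress-induced effectors split. Ppp1r15a, Ddit3 and Trib3 were higher in BM, Chac1 was lower in BM, Asns was lower in MPP, and Sesn2 did not pass in any comparison. Ppp1r15a, the phosphatase subunit that restarts translation after stress, was at 10.23, 9.64 and 7.82 in BM LT-HSC a, b and c, at 9.91, 10.00 and 10.04 in BM ST-HSC and at 9.31, 9.88 and 9.62 in BM MPP. In FL it was at 8.12, 7.47 and 8.88 in LT-HSC, at 8.13, 8.47 and 8.27 in ST-HSC and at 7.75, 7.59 and 7.65 in MPP. Every BM array but BM LT-HSC c was above every FL array.

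The BM minus FL difference of Ppp1r15a was 1.57 ± 0.24, or 2.97-fold, the largest of the members (limma adjusted p = 0.000109), and without BM LT-HSC c it was 1.80. It was 1.69 ± 0.42 in ST-HSC (adjusted p = 0.0108) and 1.94 ± 0.42 in MPP (adjusted p = 0.00795), but in LT-HSC, where the 3 BM arrays had an SD of 1.26, it was 1.07 ± 0.42 and did not pass (adjusted p = 0.143). Without BM MPP b the call in MPP was lost. Ppp1r15a is also known as an early response gene of many stimuli. Immediate early genes, which answer handling and dissociation as well as signals, moved with it. In BM, 12 of 12 (Fos, Jun, Egr1 and others) were higher, beside 9.26% of all genes, with a median difference of 1.84. Their mean per array was 9.31 to 10.89 in BM and 8.15 to 8.71 in FL, and BM LT-HSC c had the lowest BM value. Their part in the result was not tested.

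Ddit3 encodes CHOP, a transcription factor known for promoting death under lasting stress. It was at 10.32, 10.05 and 10.00 in BM LT-HSC, at 10.17, 9.89 and 9.80 in BM ST-HSC and at 9.97, 9.95 and 9.75 in BM MPP. In FL it read 9.81, 9.68 and 10.04 in LT-HSC, 9.57, 9.63 and 9.70 in ST-HSC and 9.40, 9.42 and 9.12 in MPP. The group means fell in the order LT-HSC, ST-HSC, MPP in each source, and the 3 FL MPP arrays lay below all others. These values come from the brighter of 2 probe sets, whose identifier calls it unmapped. In the other probe set Ddit3 ranged from 9.25 to 9.68 in BM and from 8.75 to 9.43 in FL, and FL MPP b, at 9.28, was above FL LT-HSC a and b, at 9.06 and 9.03. In the brighter one BM exceeded FL by 0.39 ± 0.08 (limma adjusted p = 0.00140), and MPP lay below LT-HSC by 0.38 ± 0.10 over both sources (adjusted p = 0.0199). With the mean of the probe sets the BM minus FL call over populations stayed, while the calls of MPP against LT-HSC and of BM against FL in MPP were lost. Without the 4 arrays described as sgEzh2 the call of MPP against LT-HSC over both sources was lost too (-0.49 ± 0.14, adjusted p = 0.0828).

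Trib3, a pseudokinase and known target of ATF4 and CHOP, ranged from 7.79 to 8.14 in BM and from 7.51 to 7.83 in FL, with a difference of 0.29 ± 0.06 (limma adjusted p = 0.00204). Chac1, an enzyme that degrades glutathione and is known as a target of ATF4, went the other way, with 6.60 at the lowest, 7.16 at the median and 7.62 at the highest in BM against 7.31, 7.46 and 7.99 in FL. Its difference was -0.41 ± 0.11 (adjusted p = 0.0121), and the call was lost without the 4 narrow arrays, without the 4 arrays described as sgEzh2 and without FL ST-HSC b and c. Trib3 and Chac1 both hold a match to the amino acid response element in their promoter windows.

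Asns, the asparagine synthetase, was at 10.39, 10.39 and 10.34 in BM LT-HSC, at 10.98, 10.51 and 10.04 in BM ST-HSC and at 9.36, 9.35 and 9.45 in BM MPP. In FL it was at 11.13, 10.18 and 10.79 in LT-HSC, at 10.74, 10.70 and 9.95 in ST-HSC and at 10.23, 10.13 and 10.32 in MPP. The 3 BM MPP arrays were below all others. MPP was below LT-HSC by 0.99 ± 0.24 in BM (limma adjusted p = 0.0239) and below ST-HSC by 1.12 ± 0.24 (adjusted p = 0.0105), and by 0.73 ± 0.17 below LT-HSC over both sources (adjusted p = 0.0107). The BM minus FL difference, -0.37 ± 0.14, did not pass (adjusted p = 0.0590). The call over both sources was lost without the 4 arrays described as sgEzh2, with a difference then of -0.58. Within BM, the call against LT-HSC held in 13 of the 18 fits with 1 array left out. Leaving out BM MPP a, b or c or BM LT-HSC a or b ended it. The call against ST-HSC held in 17 of the 18 and was lost without BM MPP b. The stretch of Asns above holds its match to the amino acid response element.

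**Figure D5:**
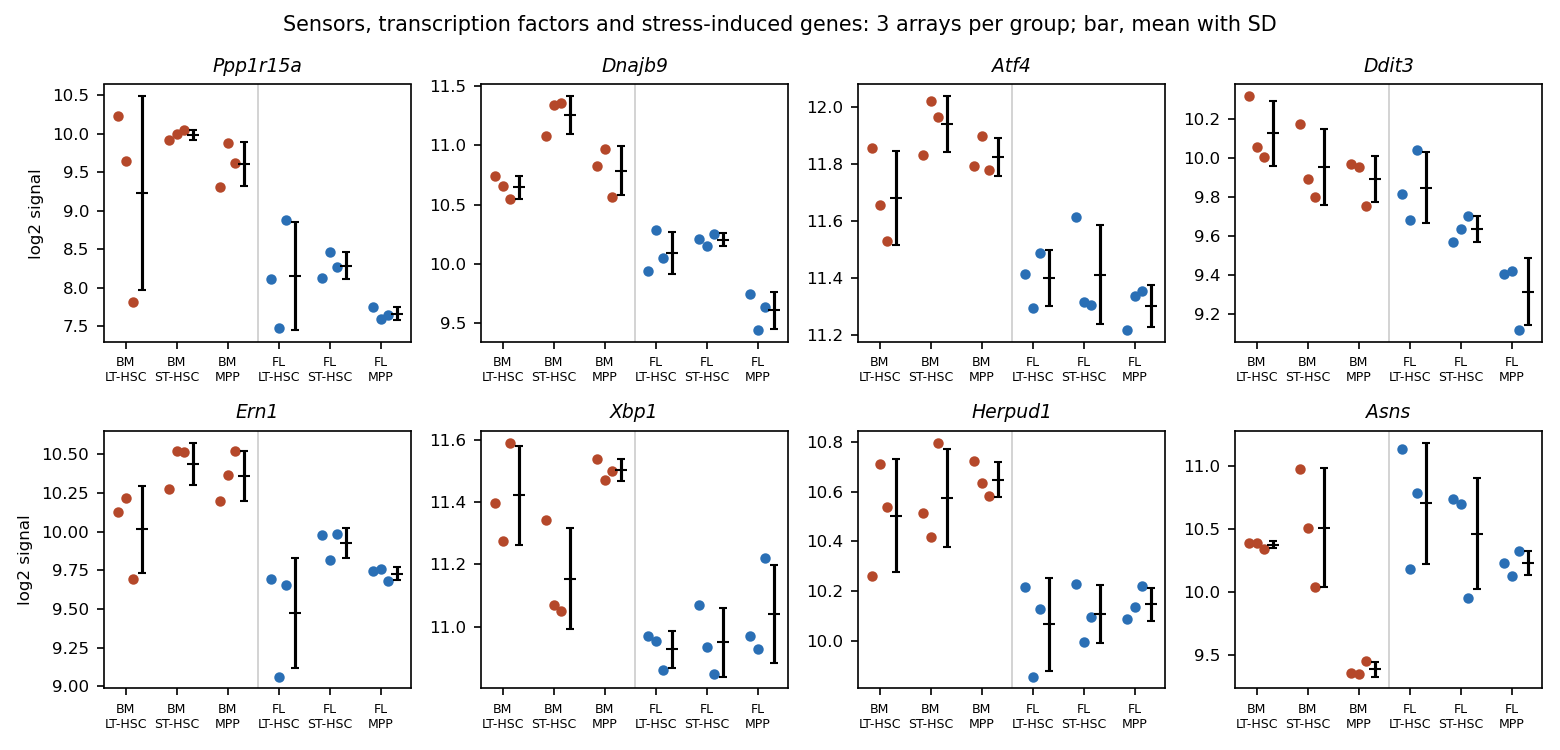
Log2 signal of 8 sensors, transcription factors and stress-induced genes in each array (points; BM left, FL right, LT-HSC, ST-HSC and MPP in order), with the group mean and SD (black, n = 3). BM LT-HSC c lies at 7.82 for Ppp1r15a, below the other BM arrays, and the 3 BM MPP arrays are the lowest for Asns. The vertical axes differ between panels and do not start at 0.

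Of 25 further genes known to answer ATF4 or amino acid shortage, 3 were higher in BM, 12 were lower and 10 did not pass, with a median of -0.26 (9.26% of all genes were higher and 15.9% lower). The 3 were the transcription factor Atf3 (1.44 ± 0.16, also counted among the immediate early genes), the lipoprotein receptor Vldlr (0.90 ± 0.08) and the cystine transporter subunit Slc7a11 (0.80 ± 0.16). The 12 were genes of serine and one-carbon metabolism (Mthfd2 at -1.03 ± 0.11, with Phgdh, Psat1 and Shmt2), the tRNA-charging enzymes Gars, Wars, Nars and Mars1, the secreted Stc2 (-0.99 ± 0.12), and Cth, Gpt2 and Slc7a1. Adjusted p by limma was between 2.04e-07 and 6.74e-06 for Atf3, Vldlr, Mthfd2 and Stc2. Between MPP and LT-HSC over both sources, 3 of the 25 were higher and 1, Nupr1, was lower (5.14% and 3.73% of all genes). Nupr1 differed by -1.28 ± 0.13 (limma adjusted p = 5.34e-06). Phgdh was higher in MPP (0.81 ± 0.21, adjusted p = 0.0179) where Asns was lower.

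The machinery that feeds and empties the ER was examined in 5 further lists. The share of all genes that were higher in MPP, 5.14%, is the background of the first counts. For MPP minus LT-HSC over both sources, 3 of 22 genes of translocation and signal peptide cleavage rose (Srp68, Ssr3 and Sec61a1, a pore subunit, by 0.37 ± 0.09), as did 5 of 17 genes of N-glycosylation (Dpagt1, which starts the glycan, by 0.53 ± 0.12, with Ganab, Alg5, Ostc and Ddost). In ER to Golgi transport 4 of 18 rose (Tmed2, Sar1b, Tmed10 and Surf4), and none of these 3 lists had a member that fell. Among other folding factors 1 of 16 rose (Ero1b, an oxidase that drives disulfide formation, by 0.43 ± 0.13), and among other degradation factors 1 of 16 (Selenos, by 0.58 ± 0.13), which for both lists is near the background. Medians were 0.20, 0.27, 0.20, 0.14 and 0.16 for the 5 lists in that order, beside 0.01 for all genes.

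For BM minus FL, where 9.26% of all genes were higher and 15.9% lower, the counts were as follows. Translocation had 2 higher and 3 lower of 22, N-glycosylation 1 higher and 1 lower of 17, ER to Golgi transport 2 higher and 0 lower of 18, other folding factors 5 higher and 1 lower of 16 and other degradation factors 4 higher and 1 lower of 16. The counts for translocation are near the background. The list medians lay between -0.08 and 0.06, beside -0.01 for all genes. Sec24d, a coat protein that selects cargo for export (0.85 ± 0.11), Ero1b (0.82 ± 0.10), the ubiquitin-conjugating enzyme Ube2j1 (0.53 ± 0.09) and Edem2 (0.45 ± 0.07) were higher in BM, while Vcp, the ATPase that pulls proteins from the ER, was lower (-0.50 ± 0.11). Adjusted p by limma was at most 0.00332 for these 5 genes.

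Markers of other cells moved with both comparisons, some lists up and others down. For MPP minus LT-HSC over both sources, 5.14% of all genes were higher and 3.73% lower. Primary granule genes of granulocyte-monocyte progenitors, whose products are made in the ER, were higher in MPP than in LT-HSC over both sources in 6 of 6, with a median of 1.75. Their mean per array was 10.22 to 11.88 in BM LT-HSC, 10.28 to 10.62 in BM ST-HSC and 12.17 to 12.33 in BM MPP, and 8.67 to 8.97, 9.96 to 10.25 and 10.40 to 11.23 in LT-HSC, ST-HSC and MPP of FL. B and plasma cell markers were higher in MPP in 3 of 9 (Mzb1, Ebf1 and Sdc1), with means per array of 8.95 to 9.56 in BM MPP and 7.83 to 8.03 in FL MPP, beside 8.54 to 9.45 in BM LT-HSC and 7.24 to 7.58 in FL LT-HSC. In the late neutrophil, macrophage and erythroid lists, the genes that passed were all lower in MPP. They were the late neutrophil markers Ltf (-1.01 ± 0.29), Camp (-0.90 ± 0.24), Cd177 (-0.85 ± 0.24) and Mmp9 (-0.76 ± 0.18). The others were the macrophage markers C1qa (-1.21 ± 0.18) and Mrc1 (-1.17 ± 0.31) and the erythroid marker Epor (-1.43 ± 0.15). The part of any of these markers in the chaperone differences was not tested.

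Primary granule genes were also higher in BM, in 5 of 6, with a median difference of 1.35. Of all genes, 9.26% were higher in BM and 15.9% lower. B and plasma cell markers were higher in BM in 5 of 9 and lower in 2 (Mzb1 and Sdc1), with a median of 1.02. Late neutrophil markers were higher in BM in 10 of 10, with means per array of 10.10 to 12.48 in BM and 6.56 to 7.66 in FL. Macrophage markers were higher in BM in 6 of 8, with 6.99 to 8.50 in BM and 6.39 to 6.69 in FL, and hepatocyte markers were lower in BM in 5 of 9 and higher in 1, with 7.08 to 7.42 in BM and 7.34 to 9.38 in FL. Of 4 erythroid markers 1 was higher in BM, with 8.69 to 9.93 in BM and 7.73 to 9.70 in FL. Their part in the BM minus FL differences of the members was not tested. Without BM LT-HSC c, the array highest in late neutrophil markers, all 12 members that passed for BM minus FL kept their call. The remaining BM arrays were still at 10.10 to 11.29 for these markers, above all FL arrays. Leaving that array out therefore cannot tell the part of these markers. No marker list has a known 0 on this scale, so the absence of a cell type could not be read from it.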

How the data were processed

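Total RNA of sorted cells was labelled from 2 ng with 10 PCR cycles before in vitro transcription and hybridised to 1 array per sample, per the labels' protocols. The authors deposited a log2 signal for each probe set, made in R 3.5.01 with oligo, per the submitters' processing notes. How background was corrected, and how arrays were normalized and summarized, was not given in the sources used here. No depth exists for arrays, so their number limits the precision. Of 22203 probe sets, 19572 had 1 symbol in the platform annotation and the 2631 others were left out. The brightest probe set per gene was kept (67 set aside). Group means were fitted with limma 3.58.1 in R 4.3.3 (lmFit, eBayes) on all 18 arrays. The script was tested on simulated data. Named genes are all members and, per list and comparison described, up to 4 called genes with the largest difference. Remaining genes of counts of 5 or fewer, the 12 lower amino acid response genes and Slc7a11 were named after their values were seen, and so was Phgdh beside Asns. Members, lists and comparisons were chosen with earlier results of these data known. Same-letter samples deviated together (correlation over 0.1) in 4 of 18 pairs within a source, so letters were not taken as pairs. No dates or batches were given. The sample codes of all 3 BM LT-HSC carry a suffix of their own, so that suffix and group cannot be told apart. Promoters came from RefSeq's table for GRCm38.p6. Alternatives left out arrays, rescaled or filtered values, averaged probe sets, changed the spread estimate, weights or samples fitted, or added a replicate block.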

Additional observations from a re-analysis of the deposited data

How the results depend on the processing

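No difference of a member changed its sign together with a call under any alternative, and no scaling moved the median of all genes by over 0.1. Of the 12 calls for BM minus FL over populations, 8 held under every alternative run (Dnajb9, Herpud1, Ern1, Xbp1, Atf4, Ddit3, Ppp1r15a and Trib3), and with 1 array left out 11 to 13 members were called. Of the 9 calls for MPP minus LT-HSC over sources, 4 held throughout (Hspa5, Calr, Sdf2l1 and Hyou1), with 6 to 10 called when 1 array was left out and 4 without the arrays described as sgEzh2, where Pdia6, Creld2, Edem1, Ddit3 and Asns lost their call. Single-population counts were less steady. With 1 array left out, the members called for BM minus FL numbered 1 to 4 in LT-HSC (3 with all arrays), 3 to 10 in ST-HSC (7) and 1 to 8 in MPP (7). For MPP minus LT-HSC they numbered 2 to 4 in BM (4) and 0 to 9 in FL (5), for ST-HSC minus LT-HSC in BM 0 to 2 (1), for MPP minus ST-HSC 3 to 12 in BM (9) and 0 to 5 in FL (4), and for the interaction of ST-HSC minus LT-HSC 0 to 2 (0). The counts fell furthest without BM MPP b (BM minus FL in MPP, 1), BM ST-HSC c (BM minus FL in ST-HSC, 3), FL LT-HSC c (BM minus FL in LT-HSC, 1), BM ST-HSC c or BM MPP b (MPP minus ST-HSC in BM, 3), FL MPP a (MPP minus LT-HSC in FL, 0) FL ST-HSC a or c or FL MPP c (MPP minus ST-HSC in FL, 0), BM ST-HSC b or c or BM LT-HSC b (ST-HSC minus LT-HSC in BM, 0), any BM MPP array or BM LT-HSC a (MPP minus LT-HSC in BM, 2) and FL MPP c (MPP minus LT-HSC over sources, 6).

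Array weights gave 5, 12 and 13 calls for BM minus FL in LT-HSC, ST-HSC and MPP, 7 for ST-HSC minus LT-HSC in BM, 19 and 7 for MPP minus ST-HSC in BM and FL, 9 for MPP minus LT-HSC in FL and 2 for the interaction of ST-HSC minus LT-HSC. Quantile normalization gave 6, and a trended robust eBayes 5, for BM minus FL in LT-HSC. Without the 30% of genes with the lowest mean there were 2 calls for ST-HSC minus LT-HSC in BM, 8 for MPP minus LT-HSC in FL and 1 for the interaction of ST-HSC minus LT-HSC. Fitting only the groups compared, with fewer arrays to estimate the spread, gave 0 and 4 for BM minus FL in LT-HSC and ST-HSC, 2 for MPP minus LT-HSC and 0 for ST-HSC minus LT-HSC in BM. Without the 4 narrow arrays there were 2 for BM minus FL in ST-HSC, 0 for ST-HSC minus LT-HSC and 2 for MPP minus ST-HSC in BM and 8 for MPP minus LT-HSC in FL. Leaving out the 4 sgEzh2 arrays keeps a lone FL MPP array, assumed to vary like the other groups, and then there were 0, 2 and 1 for BM minus FL in LT-HSC, ST-HSC and MPP, 0 for ST-HSC minus LT-HSC in BM and 0 for MPP minus LT-HSC and for MPP minus ST-HSC in FL. Without FL ST-HSC b and c there were 1 for BM minus FL in ST-HSC, 0 for ST-HSC minus LT-HSC in BM and 0 for MPP minus ST-HSC in FL. The replicate letter as a fixed block gave 2 for ST-HSC minus LT-HSC in BM and 1 for MPP minus ST-HSC in FL, and as a random block (consensus correlation 0.0362) 2 for ST-HSC minus LT-HSC in BM, and the block moved no other count by over 1.5 times. Where not stated, the cause of a change was not tested.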

Other observations

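Heat shock genes that answer misfolded proteins outside the ER, among them the mitochondrial Hspd1, were measured in 10 members of a list. For BM minus FL over populations, the Hsp110 gene Hsph1 (10.75 in BM and 11.58 in FL, a difference of -0.83 ± 0.16) and the mitochondrial chaperonin Hspd1 (-0.69 ± 0.13) were lower in BM, and Dnajb1, a cytosolic DnaJ gene, was higher (0.28 ± 0.06), with adjusted p of 0.000785, 0.000538 and 0.00207 by limma. None of the 10 passed for MPP minus LT-HSC over sources, where 2 had an unadjusted p under 0.05. Of 12 further stress regulators, Creb3l2 was higher in BM (0.48 ± 0.15, adjusted p = 0.0247) and the amino acid sensing kinase gene Eif2ak4 lower (-0.31 ± 0.10, adjusted p = 0.0227). For both lists these BM minus FL counts are near or below the shares of all genes, 9.26% higher and 15.9% lower.

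The ER stress response element was also found in the promoter windows of 19 measured genes that are not members. In MPP minus LT-HSC over sources 1 of them, Ero1b, was higher and 0 were lower, with a median difference of -0.0034. In BM minus FL over populations 1 was higher, again Ero1b, and 0 lower, with a median of 0.0186. Of the members with a window, 4 of the 6 that rose in MPP held the element, 0 of the 2 that fell and 5 of the 19 that did not pass. For BM minus FL the element was in 3 of the 11 that rose in BM, 0 of the 1 that fell and 6 of the 15 that did not pass. These counts are small, and a link of the element to either difference was not tested.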
